A study of Mus musculus with 12 samples.

Results

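The comparison described here is that of normal granulocyte-macrophage progenitors (GMP) with the normal lineage-negative, Kit-positive, Sca-1-positive fraction (LSK) of mouse bone marrow. It took the 6 wild-type (WT) libraries of the 12 in the series, 3 of LSK and 3 of GMP, which were chosen by their labels and not by any measured value. The other 6 libraries, LSK and GMP of Tet2-/-Flt3ITD animals (T2F3 in the titles), entered the fit only to share the estimate of the spread, and in a test of whether the GMP minus LSK difference differed between genotypes. All animals were C57BL/6 with a donor age of 0.35 years, marrow came from femur and tibia, and neither WT group carried an allele or received a treatment that the labels name. Lineage-positive cells were depleted first, both populations were then sorted as negative for a lineage cocktail (antibodies to CD3, B220, NK1.1, Ter119, Mac-1 and Gr-1), and total RNA depleted of ribosomal RNA was sequenced. The labels do not state that each library came from its own animal, or whether animals were pooled, so the p-values refer to variation among libraries, which may be technical.

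LSK cells are the marrow fraction that holds the blood stem cells and the multipotent progenitors that still give rise to every blood lineage. GMP are their committed offspring that make neutrophils and monocytes, and they express genes for the proteases and peroxidase of the first granules. PU.1 (encoded by Spi1) and the C/EBP factors are the transcription factors best known for driving this step, while HLF, MEIS1 and MECOM are known for keeping stem cells. In bulk samples such as these, fewer cells of a type and less RNA per cell cannot be told apart.

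WT libraries held 13316474 to 22315312 counts. Replicate 1 of both populations stood apart, with counts in 75.7% (LSK) and 71.1% (GMP) of table entries against 83.7 to 86.0% in the other WT libraries. Over genes, which are not independent points, the log levels of LSK replicate 1 correlated with its fellow replicates at 0.916 and 0.909, and those of GMP replicate 1 at 0.939 and 0.932. Between replicates 2 and 3 the value reached 0.967 in LSK and 0.969 in GMP. Small noncoding RNA genes held 8.95 to 28.3% of WT counts. Values below are counts scaled to a common library size (CPM), given for replicates 1, 2 and 3 in that order. Differences are log2 of GMP over LSK with a standard error (SE, n = 3 libraries per group). The p given with them is the edgeR quasi-likelihood p adjusted over all 16042 genes tested. The SE is the size of the log2 difference over the square root of that test's F statistic. It therefore rests on a spread estimated over all 12 libraries.

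GMP and LSK differed in 2100 of 16042 genes tested (13.1%). Of these, 918 (5.72%) were higher in GMP and 1182 (7.37%) were lower. The differences in the 2 directions were of unequal size: the median log2 difference was 1.33 among genes higher in GMP and -2.22 among genes lower in GMP, and 277 genes were at least 4-fold higher against 634 that were at least 4-fold lower. The median over all genes tested was 0.0071. The 3 GMP and 3 LSK libraries did not overlap in 2061 of the 2100 called genes and in 5056 of all genes tested (31.5%). In 81 genes called lower no count was seen in any GMP library, and in 25 genes called higher none was seen in any LSK library. Without both replicate 1 libraries 502 genes were called higher and 794 lower, and 1118 of the 2100 genes were called again. A fit with the labels' replicate number as a block (the replicate block below) called 1085 higher and 1269 lower. Without 1 library, the higher count was 596 (LSK replicate 2), 538 (GMP replicate 1) or 576 (GMP replicate 2), and the lower count was 657 without GMP replicate 2.

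**Figure D1:**
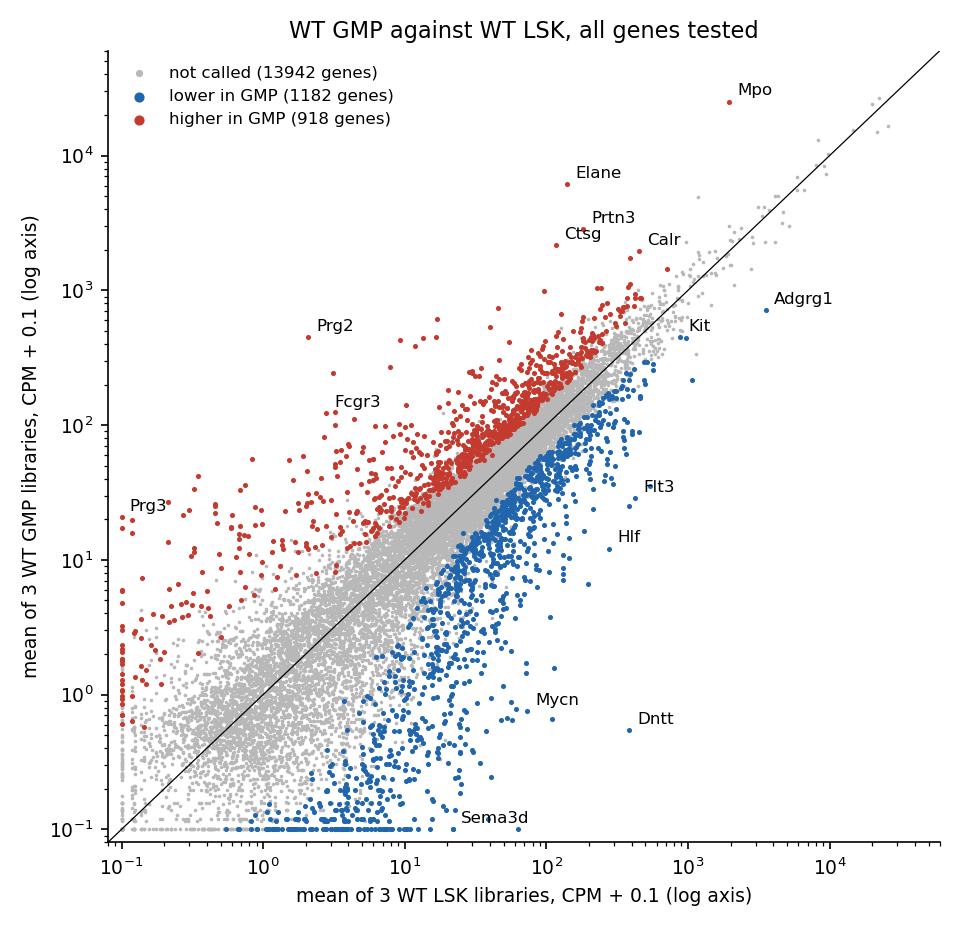
Mean CPM of the 3 WT GMP libraries (vertical) against that of the 3 WT LSK libraries (horizontal) for the 16042 genes tested, both axes logarithmic after adding 0.1 CPM, with the 918 genes called higher in GMP in red, the 1182 called lower in blue and the rest in grey. Mpo and Elane lie at the top of the red genes, and 634 blue genes against 277 red ones differ at least 4-fold.

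Ranked by the fitted log2 difference, the genes that fell most were at 0 in all GMP libraries, so only a lower bound on their fold is given. Dntt, Nkx2-3 and Gata3, described below with a few GMP counts, had fitted folds above each of these bounds. Sema3d, a secreted semaphorin, was at 27.1, 14.8 and 23 CPM in LSK and 0, 0 and 0 CPM in GMP, at least 135-fold lower (adjusted p = 0.00119). Bcam, a laminin-binding adhesion protein, was at 18.9, 12.4 and 5.54 CPM in LSK and 0, 0 and 0 CPM in GMP, at least 76.2-fold lower (adjusted p = 0.0011). Klf12, a Kruppel-like repressor, was at 16.2, 10.7 and 5.69 CPM in LSK and 0, 0 and 0 CPM in GMP, at least 67.5-fold lower (adjusted p = 0.00264). Such bounds take 3 counts per library as the most that a 0 allows, 0.1301 to 0.1786 CPM in the GMP libraries, and cover counting error only. All 15 genes named for the largest fall were at 0 in the 3 GMP libraries, among them Tmem121, Dzip1, Npas2, the gonadotropin receptor Lhcgr, the semaphorin receptor Plxnb1 and the growth factor receptor Fgfr3, whose bounds ran from 35.2-fold (Fgfr3) to 93.3-fold (Tmem121).

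Upward, the genes with the largest differences included several with few or no counts in LSK. Lin28a, an RNA-binding protein that blocks let-7 maturation, was at 0, 0 and 0 CPM in LSK and 39.8, 6.63 and 4.77 CPM in GMP, at least 87.2-fold higher (adjusted p = 0.0018). Far2, a fatty acyl-CoA reductase, was at 0.198, 0.392 and 0.148 CPM in LSK and 59.7, 33.9 and 31.1 CPM in GMP (log2 difference 7.33 ± 0.75, adjusted p = 0.000153). Olr1, a receptor for oxidised lipoprotein, was at 0, 0.336 and 0 CPM in LSK and 28.2, 29.7 and 21.9 CPM in GMP (log2 difference 7.69 ± 1.13, adjusted p = 0.00113). GMP replicate 1 was far above the other GMP libraries for Lin28a, and the 3 GMP libraries were close for Olr1. Gpx3, the secreted glutathione peroxidase, was at 0, 0.672 and 0 CPM in LSK and 52, 42.7 and 5.17 CPM in GMP (log2 difference 7.06 ± 1.13, adjusted p = 0.00181), lowest in GMP replicate 3. Mogat2, a monoacylglycerol acyltransferase with a single count in LSK, was at 0, 0.056 and 0 CPM in LSK and 37, 11.1 and 11.4 CPM in GMP (adjusted p = 0.000639), a ratio of 876 (95% counting interval 157 to 34625).

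The genes of the sorting antigens bear on the labels themselves. Kit, the stem cell factor receptor used to gate both populations, was at 1002, 881 and 763 CPM in LSK and 395, 403 and 554 CPM in GMP (log2 difference -0.97 ± 0.21, adjusted p = 0.00958). Ly6a, which encodes Sca-1, was at 26.8, 17.9 and 23.9 CPM in LSK and 3.57, 1.52 and 1.57 CPM in GMP (log2 difference -3.37 ± 0.58, adjusted p = 0.00273). Every LSK library exceeded every GMP library for both genes, and the fitted difference was 1.96-fold for Kit and 10.3-fold for Ly6a. The Kit call was lost without both replicate 1 libraries (adjusted p = 0.0767) and with the library code of the labels as a block (0.0637). The labels' protocol writes both gates as Sca-1 negative, whereas the usual meaning of LSK is Sca-1 positive, and the Ly6a counts were higher in the libraries labelled LSK.

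The Fc gamma receptor genes went the other way. Fcgr3, which encodes the low-affinity receptor that the GMP gate requires, was at 1.19, 3.19 and 3.62 CPM in LSK and 159.9, 115 and 94.4 CPM in GMP (log2 difference 5.53 ± 0.52, adjusted p = 8.9e-05). Fcgr2b, the inhibitory receptor that the same antibody also binds, was at 3.29, 10.1 and 16.3 CPM in LSK and 78.1, 45 and 73.3 CPM in GMP (log2 difference 2.73 ± 0.47, adjusted p = 0.00288). No LSK library reached a GMP library for either gene. Cd34, a sialomucin present on both populations, was at 390.0, 519 and 559 CPM in LSK and 300.3, 254 and 325 CPM in GMP, 1.67-fold lower in GMP (adjusted p = 0.039). The Cd34 call was lost without any 1 of LSK replicates 2 and 3 or GMP replicates 1, 2 and 3 (adjusted p = 0.109, 0.113, 0.0866, 0.14 and 0.0504).

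Markers outside the gates gave a mixed picture. Procr, the endothelial protein C receptor of stem cells, was at 17.4, 24.6 and 19.5 CPM in LSK and 0, 0.78 and 0.232 CPM in GMP (log2 difference -5.84 ± 0.87, adjusted p = 0.00123). Csf3r, the receptor for the granulocyte growth factor G-CSF, was at 169, 175 and 159 CPM in LSK and 167, 135 and 160.2 CPM in GMP, and its libraries overlapped (adjusted p = 0.798). Slamf1, which encodes the stem cell antigen CD150, was at 18.6, 3.64 and 3.03 CPM in LSK and 0, 0 and 1.05 CPM in GMP. It did not pass over all libraries (adjusted p = 0.0928) but did without GMP replicate 3 (adjusted p = 0.0203), by limma-voom (0.00765) and by DESeq2 (0.0273). Cd48 overlapped between the groups, at 66, 86.3 and 93.2 CPM in LSK and 76.7, 92 and 94.9 CPM in GMP (adjusted p = 0.816).

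Regulators of stem cells and multipotency were lower in GMP in 19 of 26 tested members of that list (73.1%, against 7.37% of all genes), and the other 7 did not pass. The median log2 difference of the list was -2.53. Hlf, a transcription factor of stem cells, was at 358, 266 and 212 CPM in LSK and 13.2, 8.97 and 13.8 CPM in GMP (log2 difference -4.54 ± 0.35, adjusted p = 7.37e-05), 23.2-fold lower in GMP. Meis1, a homeobox gene of self-renewing cells, was at 363, 282 and 245 CPM in LSK and 42.8, 24.7 and 41.6 CPM in GMP (log2 difference -3.03 ± 0.31, adjusted p = 0.000161). Mecom, which encodes the stem cell factor EVI1, was at 47.8, 41 and 29.7 CPM in LSK and 2.44, 2.43 and 2.21 CPM in GMP (log2 difference -4.06 ± 0.62, adjusted p = 0.00133). In all 3 genes the lowest LSK library lay above the highest GMP library, and the GMP libraries of Mecom were nearly level.

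Several regulators were close to the limit of detection in GMP. Mycn, a MYC family factor, was at 56.8, 71.4 and 91.7 CPM in LSK and 0, 0.564 and 1.39 CPM in GMP (log2 difference -6.80 ± 0.77, adjusted p = 0.000263). Nkx2-3, a homeobox factor, was at 25.1, 25.1 and 17.8 CPM in LSK and 0, 0.303 and 0.116 CPM in GMP (log2 difference -7.19 ± 0.88, adjusted p = 0.00037). Gata3, a GATA factor of stem and T lineage cells, was at 34, 4.31 and 8.94 CPM in LSK and 0, 0.13 and 0.0581 CPM in GMP (log2 difference -7.74 ± 1.24, adjusted p = 0.00182). LSK replicate 1 was the highest for Gata3, and GMP replicate 1 held no count of any of the 3 genes, which allows up to 0.179 CPM at its depth. Gata2, another GATA factor, was at 146, 169 and 168 CPM in LSK and 69.2, 95.9 and 135 CPM in GMP and did not pass (adjusted p = 0.134).

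Receptors and adhesion proteins of stem cells and their niche were lower in GMP in 18 of 32 tested members (56.2%, median log2 difference -1.90), 1 was higher and 13 did not pass. Fgd5, a guanine nucleotide exchange factor restricted to stem cells within the marrow's blood cells, was at 33.2, 25.2 and 14.6 CPM in LSK and 0, 0.477 and 0.349 CPM in GMP (log2 difference -6.38 ± 0.85, adjusted p = 0.000639). Vldlr, a lipoprotein receptor, was at 59.3, 48.8 and 35.3 CPM in LSK and 2.8, 0.91 and 2.67 CPM in GMP (log2 difference -4.50 ± 0.62, adjusted p = 0.000857). Neither exceeded 2.80 CPM in GMP, and each LSK library held 14.6 CPM or more. Adgrg1, an adhesion G protein-coupled receptor of stem cells, was at 4696, 3177 and 2739.6 CPM in LSK and 795, 527 and 804 CPM in GMP, 4.99-fold lower in GMP (adjusted p = 0.000762). It took 0.349% of the counts in LSK, a share that also grows with a gene's length, and 0.0654% in GMP. The member that rose was Cdh1, the epithelial cadherin, at 4.68, 0.839 and 0.739 CPM in LSK and 28.9, 24.3 and 27 CPM in GMP (log2 difference 3.68 ± 0.74, adjusted p = 0.00674), named here after its values were seen.

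Hox genes of the A and B clusters, homeobox factors of self-renewal and myeloid growth, had negative differences in all 13 tested members (median log2 difference -2.10), of which 5 (38.5%) were called lower. Hoxa6 was at 21.7, 26 and 20.6 CPM in LSK and 8.16, 3.86 and 3.95 CPM in GMP (log2 difference -2.10 ± 0.50, adjusted p = 0.0151). Hoxa5 was at 14.4, 16.1 and 13.3 CPM in LSK and 0, 1.78 and 1.98 CPM in GMP (log2 difference -3.53 ± 0.88, adjusted p = 0.02). Hoxb5, known as a marker of long-term stem cells, was at 2.83, 4.03 and 4.36 CPM in LSK and 0, 0 and 0 CPM in GMP, at least 23.2-fold lower (adjusted p = 0.0149). The LSK libraries exceeded the GMP libraries in all 3 genes, but without GMP replicate 2 edgeR called 0 members lower (adjusted p = 0.0673, 0.0521 and 0.0512 for these genes, 5 members at an unadjusted p under 0.05). The count was 3 without LSK replicate 2 or 3, and on all libraries 7 by DESeq2 and 9 by limma-voom. With the 6 WT libraries alone edgeR called 2 members lower. With the library code as a block it called 0 (9 members at an unadjusted p under 0.05).

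Imprinted genes, several of which are known in stem cells of blood and muscle, had 5 of 15 tested members lower (33.3%). In the other direction 1 was called (6.67%, near the 5.72% of all genes). Their median log2 difference was -4.85, or -2.83 with genes at 0 in a group set to their bound. Igf2r, the mannose 6-phosphate and IGF2 receptor, was at 124, 53.6 and 76.2 CPM in LSK and 13.5, 6.55 and 7.03 CPM in GMP (log2 difference -3.23 ± 0.42, adjusted p = 0.000541), 9.41-fold lower, and each GMP library was below each LSK library. Meg3, a long noncoding RNA of an imprinted cluster, was at 4.22, 2.52 and 4.8 CPM in LSK and 0.0595, 0.0434 and 0.116 CPM in GMP (adjusted p = 0.0312). Its call was lost without LSK replicate 1, 2 or 3 or GMP replicate 1, 2 or 3 (adjusted p of 0.0518 to 0.11). Lower members numbered 3, 2, 2 and 3 without LSK replicate 2 and GMP replicates 1, 2 and 3. The higher member was Ascl2, a bHLH factor named after its values were seen, at 0, 0 and 0 CPM in LSK and 0, 2.25 and 0.697 CPM in GMP (adjusted p = 0.0475). It was lost without LSK replicate 1, 2 or 3 (adjusted p = 0.104, 0.113 and 0.099), without GMP replicate 2 (0.143) or 3 (0.0652), and with the replicate block (0.0649).

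GTPases of the GIMAP family, encoded side by side and known from lymphocyte survival, were lower in GMP in 7 of 8 members (87.5%). Gimap6 was at 46.4, 86.2 and 81.5 CPM in LSK and 0.238, 1.91 and 2.73 CPM in GMP (log2 difference -5.44 ± 0.65, adjusted p = 0.000333). Gimap1 was at 52.5, 45.9 and 36.6 CPM in LSK and 0.179, 3.21 and 3.89 CPM in GMP (log2 difference -4.20 ± 0.69, adjusted p = 0.00201). Gimap3 was at 15.8, 1.9 and 1.7 CPM in LSK and 0, 0 and 0 CPM in GMP, at least 40.2-fold lower (adjusted p = 0.00542). Levels in GMP replicates 2 and 3 exceeded those in replicate 1 for Gimap6 and Gimap1, and no GMP library reached an LSK library. Summed over the family, CPM were 133, 200.4 and 188 in LSK and 3.39, 8.80 and 15.6 in GMP. The members resemble each other in sequence, so the split of counts among them is uncertain.

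Genes of early lymphoid and B lineage cells were lower in GMP in 15 of 26 tested members (57.7%, median log2 difference -2.75), and 11 did not pass. Dntt, the terminal transferase of lymphoid progenitors, was at 523, 192 and 439 CPM in LSK and 0, 0.867 and 0.465 CPM in GMP (log2 difference -9.65 ± 0.82, adjusted p = 7.37e-05), 802-fold lower in GMP. Flt3, a receptor of multipotent and lymphoid-primed progenitors, was at 432, 374 and 462 CPM in LSK and 20.8, 14.4 and 50.7 CPM in GMP (log2 difference -3.88 ± 0.46, adjusted p = 0.000315). Lax1, a lymphocyte adaptor protein, was at 33.7, 24.7 and 32.7 CPM in LSK and 0, 0.303 and 0.523 CPM in GMP (log2 difference -6.74 ± 1.03, adjusted p = 0.0014). The groups were far apart for each of them, and GMP replicate 1 held no Dntt or Lax1 count. The summed level of the list was 5365, 2317 and 3109 CPM in LSK against 994, 1056 and 1042 CPM in GMP, with LSK replicate 1 the highest. The count of lower members was 8 without LSK replicate 1, 7 without GMP replicate 1 and 7 without both.

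Erythroid genes were lower in 10 of 24 tested members (41.7%, median log2 difference -3.01), and 1 was higher. Car2, a carbonic anhydrase of erythroid and multipotent progenitors, was at 497, 334 and 328 CPM in LSK and 25.2, 22.8 and 26.6 CPM in GMP (log2 difference -3.96 ± 0.35, adjusted p = 7.95e-05). Zfpm1, which encodes the GATA1 cofactor FOG1, was at 318, 348 and 198 CPM in LSK and 38.6, 32.1 and 50.3 CPM in GMP (log2 difference -2.84 ± 0.29, adjusted p = 0.00015). Aqp1, a water channel, was at 112, 83.8 and 115 CPM in LSK and 3.75, 9.15 and 11.3 CPM in GMP (log2 difference -3.68 ± 0.62, adjusted p = 0.00231). None of the 3 overlapped between groups, and the fitted difference ran from 7.14-fold (Zfpm1) to 15.5-fold (Car2). Klf1, the erythroid master factor, was at 34.7, 18.4 and 19.1 CPM in LSK and 3.1, 1.69 and 2.79 CPM in GMP, and the groups did not overlap. Its log2 difference of -3.25 ± 1.11 did not pass (adjusted p = 0.0711), but it passed with the 6 WT libraries alone (adjusted p = 0.00815), by limma-voom (0.00111) and by DESeq2 (0.0115). The member higher in GMP was Tfrc, the transferrin receptor that also serves dividing cells, at 69, 56.6 and 58.9 CPM in LSK and 109, 102 and 111 CPM in GMP (log2 difference 0.80 ± 0.17, adjusted p = 0.00967). The count of lower members was 4 without LSK replicate 1, 6 without LSK replicate 2 and 4 without GMP replicate 2.

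Megakaryocyte and platelet genes were lower in 9 of 26 tested members (34.6%, median log2 difference -2.01) and higher in 2 (7.69%, near the 5.72% of all genes). Mmrn1, a platelet matrix protein, was at 64.8, 60.8 and 43.8 CPM in LSK and 1.91, 0.997 and 3.14 CPM in GMP (log2 difference -4.81 ± 0.59, adjusted p = 0.000756). Gfi1b, a repressor of megakaryocyte and erythroid cells, was at 79.2, 30.2 and 38.8 CPM in LSK and 4.76, 1.99 and 7.38 CPM in GMP (log2 difference -3.39 ± 0.62, adjusted p = 0.00379). All LSK libraries were above all GMP libraries for both genes. Serpine2, a protease inhibitor, went up, from 1.32, 3.13 and 5.91 CPM in LSK to 98.2, 56.9 and 42 CPM in GMP (log2 difference 4.25 ± 0.69, adjusted p = 0.00189). The other higher member, Cd63, a granule membrane protein named after its values were seen, was at 9.16, 25 and 23.6 CPM in LSK and 118, 34.9 and 73.9 CPM in GMP (adjusted p = 0.0398). Its call was lost without LSK replicate 1, 2 or 3 or GMP replicate 1 or 3 (adjusted p = 0.117, 0.0688, 0.0741, 0.151 and 0.0641) and with the replicate block (0.0581).

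**Figure D2:**
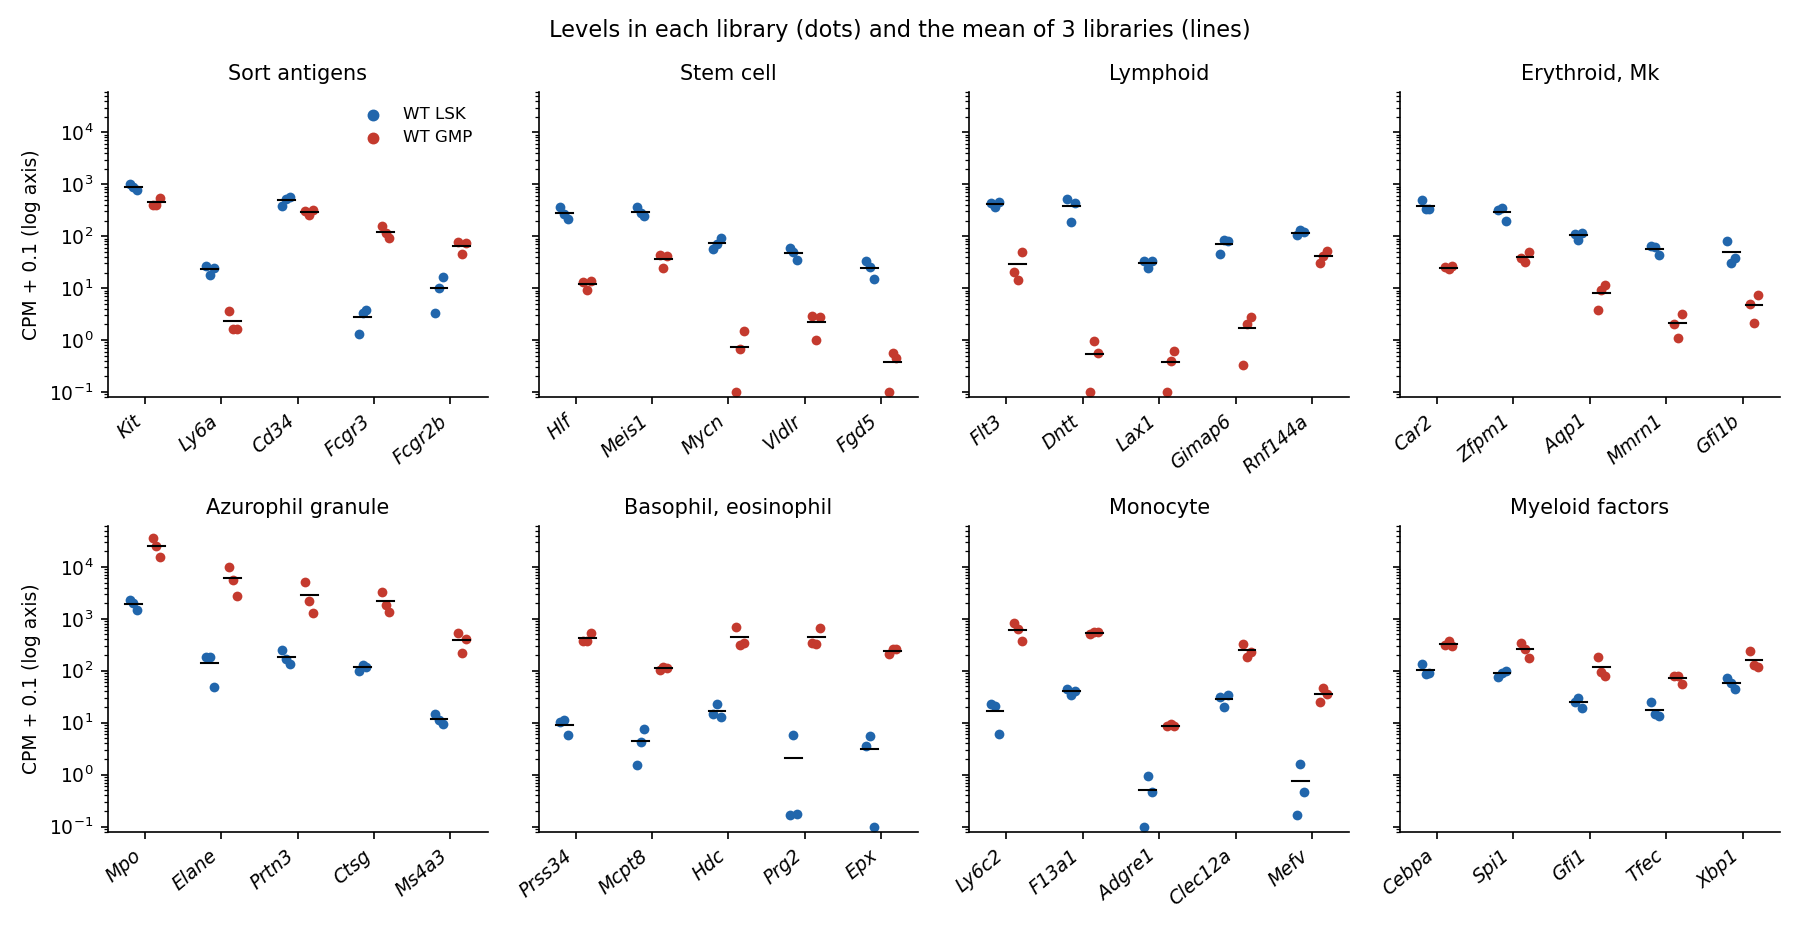
CPM (after adding 0.1, log axis) of 40 genes in the 3 WT LSK libraries (blue) and the 3 WT GMP libraries (red), with the mean of each group as a line, in 8 groups of 5 genes. The stem cell, lymphoid, erythroid and megakaryocyte (Mk) genes shown lie higher in LSK. The granule, basophil, eosinophil, monocyte and myeloid factor genes shown lie higher in GMP. These 5 genes per group do not stand for whole lists. Of 36 granulocyte and monocyte transcription factors tested, 8 were called higher and 4 lower. Of 29 monocyte, macrophage and dendritic cell genes, 11 were called higher and 3 lower. Clec12a and Mefv come from the list for sensing microbes. Kit, Ly6a and Cd34 lie higher in LSK among the sort antigens, and Fcgr3 and Fcgr2b higher in GMP.

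Genes for the azurophil granule, the first granule of the neutrophil line, rose in most cases. Of 29 tested members 19 were higher (65.5%, against 5.72% of all genes), 1 was lower and 9 did not pass, with a median log2 difference of 1.53. Mpo, the myeloperoxidase, was at 2341, 2023 and 1477 CPM in LSK and 35193, 25152 and 15155 CPM in GMP (log2 difference 3.69 ± 0.46, adjusted p = 0.000394), 12.9-fold higher. Elane, the neutrophil elastase, was at 187, 181 and 48.9 CPM in LSK and 10070.5, 5649 and 2759.9 CPM in GMP (log2 difference 5.47 ± 0.73, adjusted p = 0.000676), 44.3-fold higher. Prtn3, proteinase 3, was at 245, 166 and 132 CPM in LSK and 5014, 2233 and 1283 CPM in GMP (log2 difference 3.97 ± 0.63, adjusted p = 0.0017). Across GMP libraries the levels were uneven: GMP replicate 1 was the highest and GMP replicate 3 the lowest for all 3, yet the lowest GMP library was above the highest LSK library.

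Mpo alone took 2.29% of the counts in GMP and 0.194% in LSK. The summed level of the list was 5140, 4325 and 3673 CPM in LSK and 60356, 39366 and 24621 CPM in GMP. Ctsg, cathepsin G, was at 99.7, 132 and 119.7 CPM in LSK and 3305, 1823 and 1344 CPM in GMP (log2 difference 4.20 ± 0.44, adjusted p = 0.000169). Ms4a3, a membrane protein of GMP and their descendants, was at 14.6, 11 and 9.53 CPM in LSK and 521, 223 and 412 CPM in GMP (log2 difference 5.04 ± 0.51, adjusted p = 0.00015). Cst7, the cystatin that inhibits granule cathepsins, was at 14.6, 15.6 and 21.6 CPM in LSK and 201, 104 and 101 CPM in GMP (log2 difference 2.97 ± 0.35, adjusted p = 0.000303). These 3 genes were also highest in GMP replicate 1, and each GMP library was above each LSK library. The calls of higher members numbered 13 to 18 when 1 library was left out and 14 without both replicate 1 libraries.

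The letters GAGGAAGT, a strong form of the PU.1 site, were searched on both strands in the 250 bases before the first listed RefSeq start of each gene (build GRCm38.p6, matched by symbol for 10287 of 15958 tested symbols). They occurred in 2.68% of these promoters (276) and in 4 of 22 promoters of the granule list (18.2%), those of Mpo, Elane, Prtn3 and Ctsc. Of promoters of all genes called higher 3.16% held the letters, and of those called lower 2.88%. Within 100 bases of the start 2 of the 22 held them (9.09%), against 1.36% of all promoters. Ctsc, cathepsin C, activates the other granule proteases and was named here after its values were seen (23.8, 24.1 and 29.5 CPM in LSK and 69.5, 50.4 and 29.7 CPM in GMP, adjusted p = 0.0327). Its call was lost without LSK replicate 1, 2 or 3 (adjusted p = 0.0878, 0.0961 and 0.0542), without GMP replicate 1 or 2 (0.139 and 0.0819) and with the replicate block (0.0721). The 3 promoters of the proteases above are shown over 120 bases, 5′ to 3′ on the gene's strand, with the searched letters in capitals. They make visible how near the letters lie to the start in Elane and Prtn3, whose last capital is 78 and 88 bases before it, against 217 bases in Mpo.
Mpo (chr11:87793534-87793653, + strand): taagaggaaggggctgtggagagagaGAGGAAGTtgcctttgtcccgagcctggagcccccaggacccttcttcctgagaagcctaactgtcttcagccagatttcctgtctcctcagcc
Elane (chr10:79886171-79886290, + strand): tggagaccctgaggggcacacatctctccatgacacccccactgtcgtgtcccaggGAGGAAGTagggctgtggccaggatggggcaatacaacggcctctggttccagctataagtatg
Prtn3 (chr10:79879516-79879635, + strand): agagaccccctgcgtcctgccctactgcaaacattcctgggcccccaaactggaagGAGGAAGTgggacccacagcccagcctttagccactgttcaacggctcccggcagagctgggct
A match describes these letters in this window only, and no binding was measured here.

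Genes of later neutrophil granules were mixed. Of 24 tested members 7 were higher (29.2%), 1 was lower and 16 did not pass. Hp, haptoglobin, was at 0.132, 15.3 and 7.76 CPM in LSK and 322, 372 and 121 CPM in GMP (log2 difference 5.13 ± 0.95, adjusted p = 0.00405). Anxa1, a regulator of neutrophil adhesion, was at 6.92, 18.1 and 13.9 CPM in LSK and 68.7, 57.9 and 55 CPM in GMP (log2 difference 2.22 ± 0.32, adjusted p = 0.0011). Ltb4r1, the leukotriene B4 receptor, was at 2.97, 5.48 and 6.06 CPM in LSK and 54.9, 29 and 26.3 CPM in GMP (log2 difference 2.92 ± 0.44, adjusted p = 0.00134). These 3 were higher in each GMP library than in any LSK library. By contrast Ltf, lactoferrin of the specific granule, was at 3.95, 41.7 and 10.5 CPM in LSK and 0.0595, 26.6 and 6.28 CPM in GMP, and Camp, the cathelicidin of the same granule, was at 0, 2.97 and 0.0739 CPM in LSK and 0, 2.12 and 0.523 CPM in GMP. Their libraries overlapped (adjusted p = 0.735 and adjusted p = 0.951, named after their values were seen), and levels of both were highest in replicate 2 of each population. The lower member was Padi4, which deaminates arginine in histones, at 58.1, 81.4 and 56.4 CPM in LSK and 5.66, 11.7 and 23.7 CPM in GMP (adjusted p = 0.0402, also named after its values were seen). That call was lost without LSK replicate 1, 2 or 3 (adjusted p = 0.0701, 0.0996 and 0.061) or GMP replicate 1 or 2 (0.126 and 0.123). Higher members numbered 4, 4 and 3 without LSK replicate 3, GMP replicate 1 and GMP replicate 2.

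Genes of mast cells, basophils and eosinophils were higher in GMP in 9 of 16 tested members (56.2%), and the other 7 did not pass. Their median log2 difference, 4.28, was above that of the azurophil granule list. Prss34, a basophil protease, was at 10.2, 11.4 and 5.76 CPM in LSK and 372, 381 and 526 CPM in GMP (log2 difference 5.54 ± 0.59, adjusted p = 0.000169). Mcpt8, another basophil protease, was at 1.45, 4.09 and 7.39 CPM in LSK and 102, 119 and 111 CPM in GMP (log2 difference 4.69 ± 0.48, adjusted p = 0.000165). Hdc, the histidine decarboxylase that makes histamine, was at 14.8, 22.3 and 12.6 CPM in LSK and 684, 316 and 346 CPM in GMP (log2 difference 4.76 ± 0.40, adjusted p = 7.37e-05). The GMP libraries lay close together for Mcpt8 and farther apart for Hdc, and every one was above every LSK library.

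Eosinophil granule genes were among the 15 named for the largest differences upward. Prg2, the major basic protein, was at 0.0659, 5.76 and 0.0739 CPM in LSK and 342, 320.4 and 678 CPM in GMP (log2 difference 7.76 ± 1.31, adjusted p = 0.00251), 216-fold higher. Epx, the eosinophil peroxidase, was at 3.49, 5.48 and 0 CPM in LSK and 209, 262 and 264 CPM in GMP (log2 difference 6.33 ± 1.32, adjusted p = 0.00815). Prg3, a relative of Prg2, was at 0 in LSK and at 18.3, 16.7 and 27 CPM in GMP, at least 106-fold higher (adjusted p = 0.00155). LSK replicate 2 held most of the few Prg2 counts in LSK. The groups did not overlap for these 3 genes, which the rule that named them required. Ms4a2, the beta chain of the high-affinity IgE receptor, was at 0.329, 2.07 and 3.03 CPM in LSK and 53.2, 47.3 and 76.9 CPM in GMP (log2 difference 5.03 ± 0.67, adjusted p = 0.000639). Summed over the list, CPM were 48.2, 91.9 and 82.7 in LSK and 1940.2, 1634 and 2297 in GMP. Cpa3, the mast cell carboxypeptidase, was at 0.329, 18.6 and 37.1 CPM in LSK and 93.6, 104 and 174 CPM in GMP (adjusted p = 0.0636, named after its values were seen), and passed without LSK replicate 1 or 3 (adjusted p = 0.017 and 0.0455) and with the replicate block (0.0382). Of the 20 members in the table, 4 had too few counts to be tested.

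Genes of these lineages are known targets of GATA1 and GATA2, and a short form of the site that both proteins bind was searched in the same promoters. The letters AGATAA occurred in 6.16% of all promoters (634 of 10287), in 7.33% for genes called higher and in 7.14% for genes called lower. In this list 7 of 14 promoters held them (50%). The genes were Prss34, Ms4a2 and Fcer1a, all called higher (Fcer1a with adjusted p = 0.0284, lost without LSK replicate 3 or GMP replicate 1, 2 or 3 at 0.0751, 0.0712, 0.0532 and 0.0533 and with the replicate block at 0.0653), and Cpa3, Cd200r3, Il1rl1 and Il5ra, which were not called. These names follow from the search. The Prss34 promoter is shown because its match lies nearest to the start among the called members with 1 match, with the searched letters in capitals.
Prss34 (chr17:25298274-25298393, + strand): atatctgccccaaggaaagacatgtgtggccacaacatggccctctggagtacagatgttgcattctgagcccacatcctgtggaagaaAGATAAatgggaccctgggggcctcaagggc

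Monocyte, macrophage and dendritic cell genes were mixed. Of 29 tested members 11 were higher (37.9%, median log2 difference 1.11), 3 were lower and 15 did not pass. Ly6c2, the Ly6C antigen of monocytes, was at 23.2, 20.9 and 5.98 CPM in LSK and 837, 625 and 369 CPM in GMP (log2 difference 5.19 ± 0.57, adjusted p = 0.000219). F13a1, the coagulation factor XIII A chain of monocytes, was at 45, 34.5 and 40.9 CPM in LSK and 499, 552 and 547 CPM in GMP (log2 difference 3.73 ± 0.51, adjusted p = 0.000802). Adgre1, which encodes the macrophage antigen F4/80, was low in both populations, at 0, 0.839 and 0.369 CPM in LSK and 8.34, 9.15 and 8.37 CPM in GMP (log2 difference 4.36 ± 0.74, adjusted p = 0.00247). Every GMP library exceeded every LSK library for these 3 genes, and the Adgre1 call was lost with the 6 WT libraries alone (adjusted p = 0.0573). The lower members were Flt3, described above, and Ccr7 and Spic, a dendritic cell chemokine receptor and a macrophage factor named after their values were seen. Ccr7 was at 17.7, 2.24 and 5.1 CPM in LSK and 0, 0 and 0.581 CPM in GMP (adjusted p = 0.0231) and Spic at 13.1, 1.18 and 0.739 CPM in LSK and 0.119, 0.26 and 0.407 CPM in GMP (adjusted p = 0.0321). LSK replicate 1 was the highest library for both, and without it neither passed (adjusted p = 0.0679 and 0.24). Without GMP replicate 1 they were at 0.0701 and 0.0976, without GMP replicate 2 at 0.0763 and 0.102, and Spic was at 0.0584 without GMP replicate 3 and 0.158 with the replicate block.

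Genes for sensing microbes were higher in 11 of 37 tested members (29.7%, median log2 difference 1.33), 1 was lower and 25 did not pass. Clec12a, an inhibitory lectin of myeloid cells, was at 31.8, 19.9 and 33.2 CPM in LSK and 325, 187 and 233 CPM in GMP (log2 difference 3.13 ± 0.29, adjusted p = 8.89e-05). Clec5a, an activating lectin, was at 0.0659, 0.224 and 0.222 CPM in LSK and 30.1, 22.3 and 11.4 CPM in GMP (log2 difference 6.91 ± 0.59, adjusted p = 7.37e-05). Mefv, which encodes the inflammasome protein pyrin, was at 0.0659, 1.51 and 0.369 CPM in LSK and 24.5, 46.7 and 36 CPM in GMP (log2 difference 5.72 ± 0.76, adjusted p = 0.000639). The single lower member was Tlr7, the endosomal receptor for single-stranded RNA, at 21.8, 10.9 and 10.7 CPM in LSK and 0, 0.477 and 0.349 CPM in GMP (log2 difference -5.65 ± 1.03, adjusted p = 0.00378), named after its values were seen.

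Subunits of the phagocyte NADPH oxidase had positive differences in all 7 tested members, and 4 of them (57.1%) passed. Ncf1, the cytosolic p47 subunit, was at 102, 64.2 and 78.5 CPM in LSK and 258, 221 and 134 CPM in GMP (log2 difference 1.32 ± 0.24, adjusted p = 0.00402). Ncf4, the p40 subunit, was at 35.9, 33.8 and 25.7 CPM in LSK and 133, 95.7 and 45.4 CPM in GMP (log2 difference 1.52 ± 0.32, adjusted p = 0.00791). GMP replicate 3 was lower than GMP replicate 1 in both, and the groups stayed apart. Cybb, the membrane subunit that carries the electrons, was at 0.132, 13.2 and 4.28 CPM in LSK and 42.5, 70.6 and 53.8 CPM in GMP (adjusted p = 0.0236). Its call was lost without LSK replicate 3 (adjusted p = 0.0769) or GMP replicate 2 (0.0643).

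Transcription factors of the granulocyte and monocyte lines were split, with 8 of 36 tested members higher (22.2%), 4 lower (11.1%) and 24 not past the test (median log2 difference -0.32). Cebpa, the factor required to form GMP, was at 137, 84.7 and 92 CPM in LSK and 308, 376 and 299.8 CPM in GMP (log2 difference 1.65 ± 0.25, adjusted p = 0.00125). Spi1, which encodes PU.1, was at 75.9, 91.7 and 101 CPM in LSK and 339.9, 259.8 and 177 CPM in GMP (log2 difference 1.53 ± 0.28, adjusted p = 0.00392). Gfi1, a repressor of the neutrophil line, was at 25.2, 29.4 and 18.7 CPM in LSK and 182, 92.5 and 78.8 CPM in GMP (log2 difference 2.27 ± 0.43, adjusted p = 0.00503). In these 3 genes all GMP libraries exceeded all LSK libraries. Tfec, a relative of the microphthalmia factor in myeloid cells, was at 25.3, 14.4 and 13.5 CPM in LSK and 80.7, 78.6 and 54.7 CPM in GMP (log2 difference 2.01 ± 0.31, adjusted p = 0.00137). The fitted differences of the 4 factors ran from 2.89-fold (Spi1) to 4.81-fold (Gfi1). Cebpe, the factor of late granule genes, was at 4.35, 4.37 and 0.739 CPM in LSK and 99, 63.7 and 30.5 CPM in GMP (log2 difference 4.34 ± 0.93, adjusted p = 0.00931), and Irf8, the monocyte and dendritic cell factor, was at 221, 108 and 198 CPM in LSK and 443, 539 and 348 CPM in GMP and did not pass (adjusted p = 0.13, but 0.0359 with the 6 WT libraries alone). Both were named after their values were seen. The lower members were Runx2, Runx3, Cux1 and Bach2, named only to complete the count, which was 2 without LSK replicate 1 or 2, 1 without GMP replicate 1 and 2 without GMP replicate 2. The replicate block gave 9 lower members.

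Cytokine receptors and their signal transducers were lower in 14 of 44 tested members (31.8%, against 7.37% of all genes) and higher in 4 (9.09%, against 5.72%). Il1r1, the interleukin 1 receptor, was at 71.2, 50.1 and 65.4 CPM in LSK and 1.73, 4.38 and 10.2 CPM in GMP (log2 difference -3.52 ± 0.53, adjusted p = 0.00134), named after its values were seen. Jak3, a kinase of common gamma chain receptors, was at 377, 244 and 182 CPM in LSK and 93, 69.1 and 67 CPM in GMP (log2 difference -1.81 ± 0.26, adjusted p = 0.00101). Socs2, a feedback inhibitor of receptor signalling, was barely detected, at 1.58, 1.57 and 0.96 CPM in LSK and 0, 0 and 0.0581 CPM in GMP (adjusted p = 0.000259), a ratio of 79.6 (95% counting interval 13.8 to 3193). Each LSK library was above each GMP library for the 3 genes, and the lower members also included Kit and Flt3, described above. The 4 higher members were receptor chains, all but Ifngr1 bound by colony-stimulating factors, and were named after their values were seen. Csf1r, the receptor of the macrophage factor, was at 48.8, 29.9 and 43 CPM in LSK and 202, 173 and 181 CPM in GMP (log2 difference 2.19 ± 0.53, adjusted p = 0.0167), and was lost without LSK replicate 2 (adjusted p = 0.0656). Csf2ra and Csf2rb, the chains of the GM-CSF receptor, were 2.97-fold and 2.48-fold higher (adjusted p = 0.029 and adjusted p = 0.0349). Csf2ra was lost without LSK replicate 1, 2 or 3 (adjusted p = 0.0547, 0.0687 and 0.0955) or GMP replicate 1 or 2 (0.0925 and 0.0805), and Csf2rb without LSK replicate 2 or 3 (0.119 and 0.109) or GMP replicate 1 or 2 (0.104 and 0.0807). Ifngr1, of the interferon gamma receptor, was at 152, 83.7 and 119 CPM in LSK and 480.3, 365 and 294 CPM in GMP (log2 difference 1.69 ± 0.31, adjusted p = 0.00361). The higher count was 1 without LSK replicate 2 and 2 without LSK replicate 3, GMP replicate 1 or GMP replicate 2, and the lower count was 9 without LSK replicate 1.

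Genes for folding and N-glycosylating proteins in the endoplasmic reticulum (ER) had the largest share of members called higher among the 33 lists examined. Of 56 tested members 42 were higher in GMP (75%, against 5.72% of all genes), the other 14 did not pass, and 53 had a positive difference (median 1.22 on the log2 scale). The summed level was 6379, 6238 and 5968 CPM in LSK and 19000.0, 16954 and 14579 CPM in GMP. By role, 11 of 12 chaperones and co-chaperones, all 6 enzymes of disulfide bonds, 8 of 12 genes of the translocon and signal peptidase, 9 of 15 of N-glycan synthesis and transfer and 8 of 11 of glycan trimming and disposal were higher. Median log2 differences of these groups ran from 0.92 (trimming and disposal) to 1.85 (disulfide bonds). The count was between 35 and 42 when 1 library was left out and 33 without both replicate 1 libraries.

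Disulfide and chaperone genes gave the smallest p values of the list together with Edem1. Pdia6, a disulfide isomerase, was at 107, 144 and 101 CPM in LSK and 460.2, 549 and 362 CPM in GMP (log2 difference 1.96 ± 0.23, adjusted p = 0.000288). Hsp90b1, the ER form of HSP90, was at 186, 198 and 160.0 CPM in LSK and 606, 697 and 583 CPM in GMP (log2 difference 1.79 ± 0.23, adjusted p = 0.000569). Ero1l, the oxidase that recharges the isomerases, was at 30.7, 41.9 and 32.5 CPM in LSK and 174, 152 and 121 CPM in GMP (log2 difference 2.09 ± 0.27, adjusted p = 0.000585). All GMP libraries of these genes lay above all LSK libraries. Edem1, which sends misfolded glycoproteins to disposal, was at 63.1, 51.3 and 40.6 CPM in LSK and 191, 182 and 151 CPM in GMP (log2 difference 1.76 ± 0.20, adjusted p = 0.000272). Calr, the lectin chaperone calreticulin, was at 329, 507 and 518 CPM in LSK and 1906, 2089.9 and 1901 CPM in GMP (log2 difference 2.12 ± 0.29, adjusted p = 0.000801), and Hspa5, the ER HSP70 called BiP, was at 243, 219 and 185 CPM in LSK and 514, 805 and 546 CPM in GMP (log2 difference 1.53 ± 0.22, adjusted p = 0.0011), both named after their values were seen. Xbp1, a transcription factor of the unfolded protein response counted here among the myeloid factors, was at 72.8, 57.8 and 44.9 CPM in LSK and 237, 127 and 116 CPM in GMP (log2 difference 1.45 ± 0.31, adjusted p = 0.00921).

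**Figure D3:**
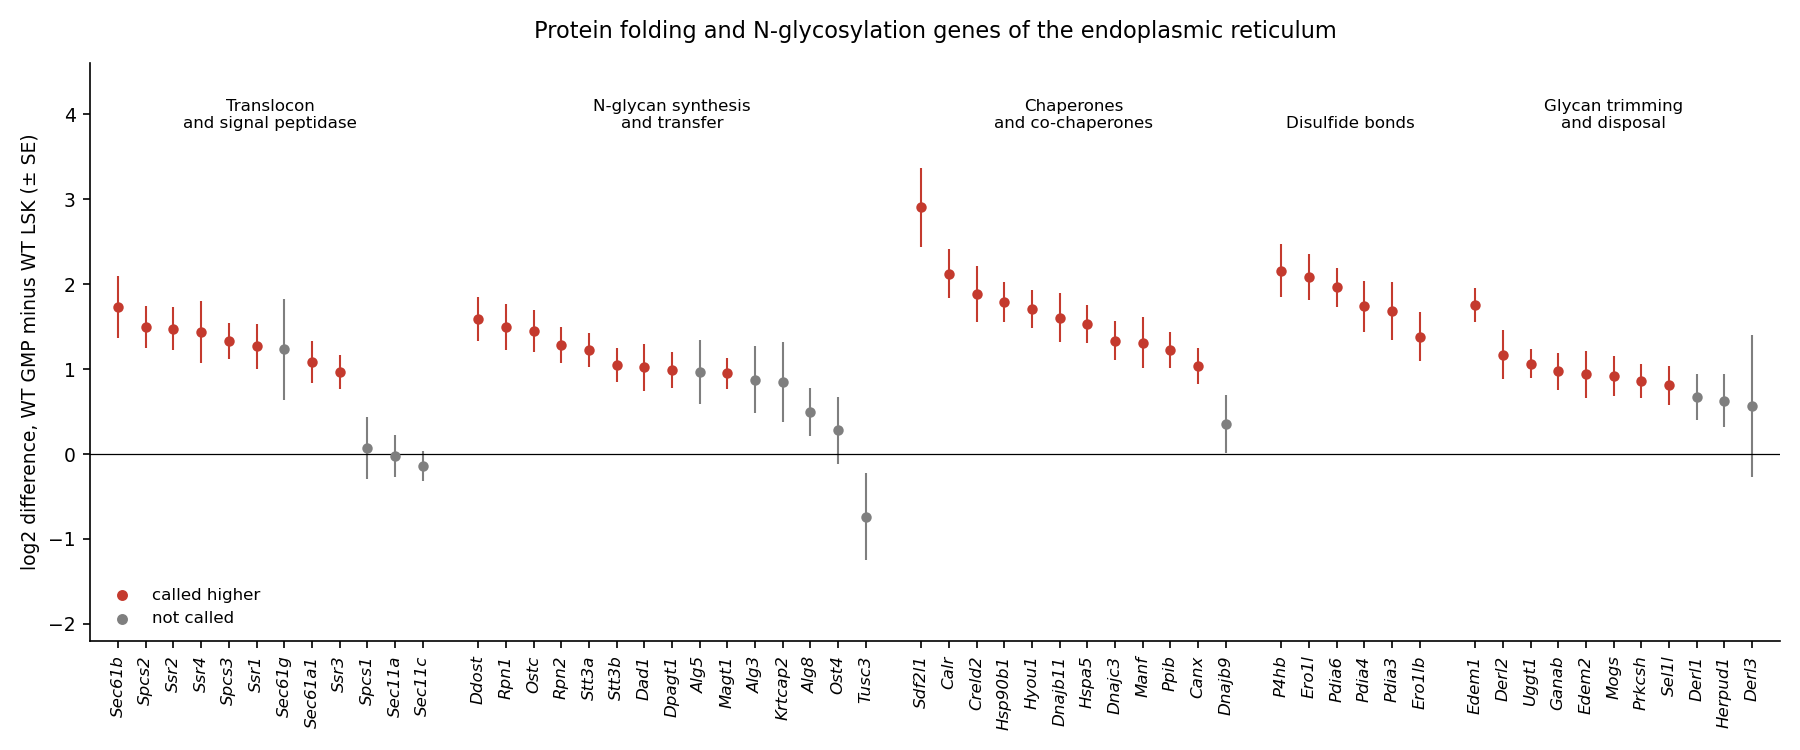
Log2 difference (WT GMP minus WT LSK, ± SE, n = 3 libraries per group) of the 56 tested genes for protein folding and N-glycosylation in the ER, grouped by role, with the 42 called higher in red and the 14 not called in grey. Points lie mostly between 0.8 and 2.2, and 3 members have a difference below 0.

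The ER stress response element (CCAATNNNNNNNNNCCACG) was searched on both strands of the same 250-base windows, a motif added after the values were seen. It occurred in 19 of 10287 promoters (0.185%), and 8 of these 19 belonged to the 44 members of the ER list with a promoter (18.2%). Of the 8, those of Pdia6, Hsp90b1, Calr, Hspa5, Dnajc3, Creld2 and Canx were of genes called higher and that of Derl3 of a gene not called. Among the 696 promoters of all genes called higher there were 7 matches (1.01%), and among the 868 of genes called lower there was no match. Within 100 bases of the start it was in 2 of the 44 (4.55%) and in 7 of 10287 (0.068%). The element is named for the ER stress response, so its share in an ER list is a description and not a test. The promoters of 4 members described above are shown over 120 bases, 5′ to 3′ on the gene's strand, with the element in capitals, which reads as its reverse complement in Calr. The Hsp90b1 promoter holds the element a second time, on the opposite strand, between bases 107 and 89 before the start.
Pdia6 (chr12:17266440-17266559, + strand): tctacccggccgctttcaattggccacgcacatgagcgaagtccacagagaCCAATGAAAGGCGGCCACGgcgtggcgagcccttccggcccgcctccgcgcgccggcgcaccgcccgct
Hsp90b1 (chr10:86705575-86705694, - strand): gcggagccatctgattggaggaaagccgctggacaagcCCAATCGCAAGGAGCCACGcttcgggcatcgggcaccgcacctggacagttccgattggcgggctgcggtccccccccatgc
Calr (chr8:84847025-84847144, - strand): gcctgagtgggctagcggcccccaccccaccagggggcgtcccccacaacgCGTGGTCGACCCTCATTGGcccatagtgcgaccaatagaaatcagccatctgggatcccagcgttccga
Hspa5 (chr2:34771970-34772089, + strand): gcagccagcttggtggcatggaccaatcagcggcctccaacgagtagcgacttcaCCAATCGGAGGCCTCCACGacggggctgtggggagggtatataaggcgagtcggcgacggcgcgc
In Hspa5 the element ends 47 bases before the start and in Pdia6 80 bases before it, against 144 in Calr and 194 for the element shown of Hsp90b1.

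Enzymes of glycolysis were higher in 12 of 24 tested members (50%) and lower in 3 (12.5%). Pgam1, phosphoglycerate mutase, was at 55, 51.3 and 47.3 CPM in LSK and 184, 169 and 182 CPM in GMP (log2 difference 1.80 ± 0.20, adjusted p = 0.000257). Hk3, a hexokinase of myeloid cells, was at 126, 123 and 112 CPM in LSK and 624, 479.7 and 362 CPM in GMP (log2 difference 2.02 ± 0.24, adjusted p = 0.000272). Gpi1, glucose phosphate isomerase, was at 355, 395 and 412 CPM in LSK and 1386, 1189 and 783 CPM in GMP (log2 difference 1.53 ± 0.28, adjusted p = 0.00351). The GMP libraries of these 3 genes lay above LSK without overlap. In contrast Slc2a3, a glucose transporter, was at 73.1, 90.3 and 79.7 CPM in LSK and 16.1, 17.9 and 24.2 CPM in GMP (log2 difference -2.06 ± 0.31, adjusted p = 0.00136). The other lower members, named after their values were seen, were Pfkm, a phosphofructokinase isoform, at 52.4, 46 and 35 CPM in LSK and 16.6, 22 and 19.1 CPM in GMP (adjusted p = 0.00992), and Aldoc, an aldolase isoform, at 19.8, 5.88 and 6.8 CPM in LSK and 0, 0.0867 and 0.988 CPM in GMP (adjusted p = 0.0061). The Aldoc call was lost with the 6 WT libraries alone (adjusted p = 0.0664). The higher count was 7 without LSK replicate 2, 7 without GMP replicate 1 and 7 without both replicate 1 libraries.

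Genes of DNA replication had small differences in 1 direction. Of 47 tested members 46 had a positive difference (median 0.47), and 8 passed (17%). Mcm5, a subunit of the replicative helicase, was at 389, 392 and 337 CPM in LSK and 1037, 711 and 538 CPM in GMP (log2 difference 1.03 ± 0.24, adjusted p = 0.0143). E2f1, the S phase transcription factor, was at 22.2, 37.1 and 33.7 CPM in LSK and 108, 70.6 and 47 CPM in GMP (log2 difference 1.28 ± 0.29, adjusted p = 0.0121). Rrm2, of ribonucleotide reductase, was at 129.7, 93.6 and 116 CPM in LSK and 296, 187 and 250.3 CPM in GMP (log2 difference 1.11 ± 0.26, adjusted p = 0.0152). The groups did not overlap and GMP replicate 1 was the highest library for each gene, and all 3 calls were lost without GMP replicate 1 (adjusted p = 0.056, 0.0521 and 0.0606), as was Rrm2 without LSK replicate 2 (0.0653) and Mcm5 without LSK replicate 3 (0.0589). The count of higher members was 4 and 2 without LSK replicate 2 or 3, 5 without GMP replicate 2, and 0 by edgeR without GMP replicate 1, where 12 members had an unadjusted p under 0.05. DESeq2 and limma-voom on all libraries gave 10 and 13.

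Mitosis genes had 34 positive differences of 40 (median 0.34), with 4 members called higher (10%, against 5.72% of all genes) and 1 lower (2.5%, against 7.37%). Without both replicate 1 libraries edgeR called 0 in either direction, with 10 higher members and 0 lower at an unadjusted p under 0.05, while DESeq2 on all libraries called 5 and 1. Aurkb, the kinase of the chromosomal passenger complex, was at 48.2, 47 and 46 CPM in LSK and 84.4, 81.8 and 74.4 CPM in GMP (log2 difference 0.77 ± 0.18, adjusted p = 0.0132). Kif2c, a kinesin of the centromere, was at 10.9, 14.6 and 24.1 CPM in LSK and 46.5, 32.1 and 32.1 CPM in GMP (log2 difference 1.16 ± 0.30, adjusted p = 0.0242). The groups did not overlap in either gene, and Kif2c was lost without LSK replicate 1 or 2 (adjusted p = 0.0663 and 0.0814) or GMP replicate 1 (0.0916). Higher members numbered 1, 2, 1 and 2 without LSK replicates 1 and 2 and GMP replicates 1 and 2. The lower one, Cdc25b, a phosphatase that activates CDK1, was at 51.4, 30.3 and 22.5 CPM in LSK and 13.3, 20.4 and 14.5 CPM in GMP (adjusted p = 0.0418) and did not pass without any 1 of LSK replicates 1 and 2 and GMP replicates 1 to 3 (adjusted p of 0.0559 to 0.152) or with the replicate block (0.068).

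Genes that hold cells out of cycle were lower in 8 of 26 tested members (30.8%, median log2 difference -0.67), and 18 did not pass. Txnip, a thioredoxin inhibitor of quiescent cells, was at 582, 369 and 407 CPM in LSK and 79.8, 86.4 and 98.4 CPM in GMP (log2 difference -2.36 ± 0.24, adjusted p = 0.00015). Foxo3, a forkhead factor of quiescent stem cells, was at 587, 474 and 439.9 CPM in LSK and 180.0, 206 and 217 CPM in GMP (log2 difference -1.31 ± 0.20, adjusted p = 0.00153). Cdkn1b, the CDK inhibitor p27, was at 80.9, 79 and 99.1 CPM in LSK and 50.2, 37.3 and 35.6 CPM in GMP (log2 difference -1.07 ± 0.19, adjusted p = 0.00341). Every LSK library was above every GMP library for the 3 genes.

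Ribosome biogenesis genes were positive in 40 of 44 tested members (median 0.49) and passed in 7 (15.9%). Nhp2, of the pseudouridylation complex, was at 18.5, 32.2 and 19.8 CPM in LSK and 60.7, 67.1 and 44.7 CPM in GMP (log2 difference 1.29 ± 0.26, adjusted p = 0.00713). The count was 1, 3, 3, 3 and 1 without LSK replicates 1, 2 and 3 and GMP replicates 1 and 2, and 12 with the replicate block. Without both replicate 1 libraries edgeR called 0 (8 members at an unadjusted p under 0.05, 9 called by DESeq2 on all libraries), and Nhp2 had an adjusted p of 0.0535. RLE scaling gave 4, the 6 WT libraries alone 3 and the library code as a block 1. Mitochondrial ribosomal proteins were positive in 67 of 76 (median 0.58) and passed in 5 (6.58%, near the 5.72% of all genes). Mrpl11 was at 3.56, 5.48 and 10.3 CPM in LSK and 35.4, 19.2 and 18.9 CPM in GMP (log2 difference 1.92 ± 0.42, adjusted p = 0.0104), with all GMP libraries above LSK. That count was 3 without GMP replicate 1 and 9 without GMP replicate 3, and edgeR called 0 without both replicate 1 libraries (16 members higher at an unadjusted p under 0.05, 11 called by DESeq2 on all libraries), where Mrpl11 had an adjusted p of 0.0662. RLE scaling moved the median over all genes from 0.0071 to -0.0484.

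Signalling genes of the TGF-beta, Notch and Wnt pathways were lower in 11 of 40 tested members (27.5%) and higher in 1. Ltbp3, which binds latent TGF-beta, was at 84.6, 78.1 and 63.8 CPM in LSK and 11.7, 15.4 and 17.4 CPM in GMP (log2 difference -2.35 ± 0.26, adjusted p = 0.000252). Tgfbr2, its type II receptor, was at 75.1, 78.2 and 61.3 CPM in LSK and 36.2, 23.6 and 30.9 CPM in GMP (log2 difference -1.24 ± 0.22, adjusted p = 0.00287). Tcf7l2, a Wnt effector, was at 22.6, 23.9 and 21.4 CPM in LSK and 1.91, 3.03 and 4.24 CPM in GMP (log2 difference -2.88 ± 0.47, adjusted p = 0.00207). Dtx4, a Notch regulator, went up, from 124, 65.2 and 74.8 CPM to 416, 348 and 271 CPM (log2 difference 1.97 ± 0.30, adjusted p = 0.00136). None of the 4 overlapped between groups. The lower count was 5, 6, 4 and 6 without LSK replicates 2 and 3 and GMP replicates 1 and 2.

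Interferon-stimulated genes had negative differences in 42 of 46 tested members (median -1.18), of which 15 were lower (32.6%). Irgm2, an immunity-related GTPase, was at 41.6, 31.4 and 26.7 CPM in LSK and 8.1, 9.32 and 12.1 CPM in GMP (log2 difference -1.75 ± 0.30, adjusted p = 0.00273). Ddx58, which encodes the RNA sensor RIG-I, was at 55.2, 71.7 and 50.6 CPM in LSK and 26.1, 13.1 and 12.9 CPM in GMP (log2 difference -1.77 ± 0.31, adjusted p = 0.00294). Gbp2, a guanylate-binding protein, was at 28.5, 20.2 and 24.2 CPM in LSK and 4.88, 5.64 and 8.95 CPM in GMP (log2 difference -1.90 ± 0.34, adjusted p = 0.0033). LSK libraries were above GMP libraries for these 3 genes, and summed CPM of the list were 1592, 1571 and 1545 in LSK and 819, 896 and 911 in GMP. The lower count was 9 without GMP replicate 1, 9 without GMP replicate 2 and 5 without both replicate 1 libraries.

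MHC class II genes, for antigen presentation, mostly did not pass, with 1 of 11 called lower (9.09%, near the 7.37% of all genes). Of 11 tested members 10 had a negative difference (median -1.83) and H2-Ob, a subunit of the peptide editor H2-O, passed, at 63.7, 54.5 and 96 CPM in LSK and 5.48, 8.5 and 14.4 CPM in GMP (log2 difference -2.92 ± 0.55, adjusted p = 0.00437). H2-Eb1, a class II beta chain, was at 37.4, 11.5 and 36.6 CPM in LSK and 6.49, 1.95 and 5.17 CPM in GMP and H2-Oa, the partner of H2-Ob, at 26.1, 14.3 and 26.9 CPM in LSK and 14.3, 6.85 and 7.09 CPM in GMP. They did not pass (adjusted p = 0.0761 and adjusted p = 0.0866) but did with the replicate block (adjusted p = 0.0258 and 0.0263), and H2-Oa also without GMP replicate 1 (0.0491), which gave 2 lower members.

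DNA methylation and chromatin regulators were lower in 9 of 51 tested members (17.6%, against 7.37% of all genes) and higher in 2 (3.92%, against 5.72%). Chd7, a chromatin remodeller, rose, at 4.81, 9.46 and 3.99 CPM in LSK and 92.3, 108 and 91.9 CPM in GMP (log2 difference 3.99 ± 0.52, adjusted p = 0.000622), 15.9-fold higher. Cbx2, a Polycomb subunit, was at 96.8, 77.6 and 73 CPM in LSK and 34.6, 23.2 and 28.6 CPM in GMP (log2 difference -1.52 ± 0.22, adjusted p = 0.00101). Kdm6b, a histone H3K27 demethylase, was at 94.4, 117 and 79.9 CPM in LSK and 21, 34.5 and 37.8 CPM in GMP (log2 difference -1.64 ± 0.29, adjusted p = 0.00324). Groups were apart for all 3. Tet2, the dioxygenase that the other genotype lacks, was at 88.9, 79.7 and 78.9 CPM in LSK and 107, 137 and 112 CPM in GMP and did not pass (adjusted p = 0.242), whereas its relative Tet1 was at 65.3, 113 and 93.6 CPM in LSK and 31.4, 32.5 and 48.5 CPM in GMP (log2 difference -1.27 ± 0.25, adjusted p = 0.00628), named after its values were seen. The second higher member, Hmga1, an architectural factor, was at 80.4, 73.1 and 94.6 CPM in LSK and 163, 137 and 138 CPM in GMP (adjusted p = 0.0111, likewise named later) and was lost without LSK replicate 2 (adjusted p = 0.0514). Without that library 1 member was higher.

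Of 74 microRNA hairpin genes with an entry, 15 could be tested, and 1 passed, called lower, a call that 7.37% of all genes had. Mir155, a microRNA of activated and stem blood cells, was at 8.04, 6.32 and 2.73 CPM in LSK and 0, 0 and 0.872 CPM in GMP (log2 difference -4.31 ± 1.11, adjusted p = 0.0231). GMP replicates 1 and 2 held no count, and the call was lost without GMP replicate 2 (adjusted p = 0.0581). Its mature products are shown, with the seed (bases 2 to 8) in capitals, because the seeds of the arms differ and hairpin counts do not tell the arms apart. Both are from RefSeq (GRCm38.p6), on chr16:84714143-84714165 and chr16:84714182-84714202 of the + strand.
mmu-miR-155-5p: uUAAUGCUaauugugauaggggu
mmu-miR-155-3p: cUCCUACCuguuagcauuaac

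Markers of cells outside both gates were read as whole lists. For plasma cells, 5 of 11 tested members (45.5%) were lower in GMP, and summed CPM were 3372, 489 and 589 in LSK and 504, 394 and 273 in GMP, LSK replicate 1 being the highest. Jchain, the joining chain of secreted antibodies, was at 137, 17 and 3.84 CPM in LSK and 0.417, 0.477 and 0.814 CPM in GMP (log2 difference -6.52 ± 1.12, adjusted p = 0.00273), and Igkc, the kappa light chain, was at 515, 43.1 and 33.1 CPM in LSK and 10.1, 4.81 and 4.77 CPM in GMP (adjusted p = 0.0126). The Igkc call was lost without LSK replicate 1 (adjusted p = 0.0938) or GMP replicate 2 (0.0569), and the lower count was 2, 2, 1 and 3 without LSK replicate 1 and GMP replicates 1, 2 and 3. Immunoglobulin genes share sequence, so the split of their counts is uncertain. The higher member was Xbp1, described above. T and NK cell markers summed to 47.5 to 92.0 CPM in LSK and 10.4 to 36.1 CPM in GMP, with Trac at 0 in every WT library. Of 13 tested members 1 (7.69%) was called in each direction, near the shares of all genes (5.72% higher, 7.37% lower). Without LSK replicate 1 or GMP replicate 1 the lower count was 2 and without LSK replicate 3 it was 0 by edgeR (3 members at an unadjusted p under 0.05, 3 called by DESeq2 on all libraries), and the higher call was lost without LSK replicate 1, 2 or 3. Marrow stroma and endothelium markers summed to 218 to 290 CPM in LSK and 141 to 218 CPM in GMP, with Col3a1 at 0, and 2 of 9 tested members were lower. That count was 1 without LSK replicate 1 or 3 or GMP replicate 1 or 3, and 0 by edgeR without GMP replicate 2, where 3 members had an unadjusted p under 0.05 (DESeq2 called 3 on all libraries). The part of such cells in the differences above was not tested.

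Leaving out both replicate 1 libraries lowered the counts of several lists. Lower members then numbered 7 of 26 in the early lymphoid list and 5 each in the erythroid list, the interferon-stimulated list and the list of TGF-beta, Notch and Wnt signalling. They numbered 4 among DNA methylation and chromatin regulators and 3 among imprinted genes. The sort antigens, the myeloid transcription factors, the monocyte list, the plasma cell list and the stroma list had 1 lower member each. Higher members numbered 7 in glycolysis, 7 in the monocyte list and 2 in DNA replication. The single lower call of the azurophil and of the specific granule list, the single higher call of the T and NK cell list, and 1 of 2 higher calls among megakaryocyte genes and among chromatin regulators were lost. Of the 195 named genes that were called, 53 lost their call, among them Cd34, Aurkb, Kif2c, Cebpe, Csf1r, Csf2ra, Ctsc, Padi4, E2f1, Mcm5, Rrm2, Pfkm, Ccr7, Spic, Igkc and Mir155.

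**Figure D4:**
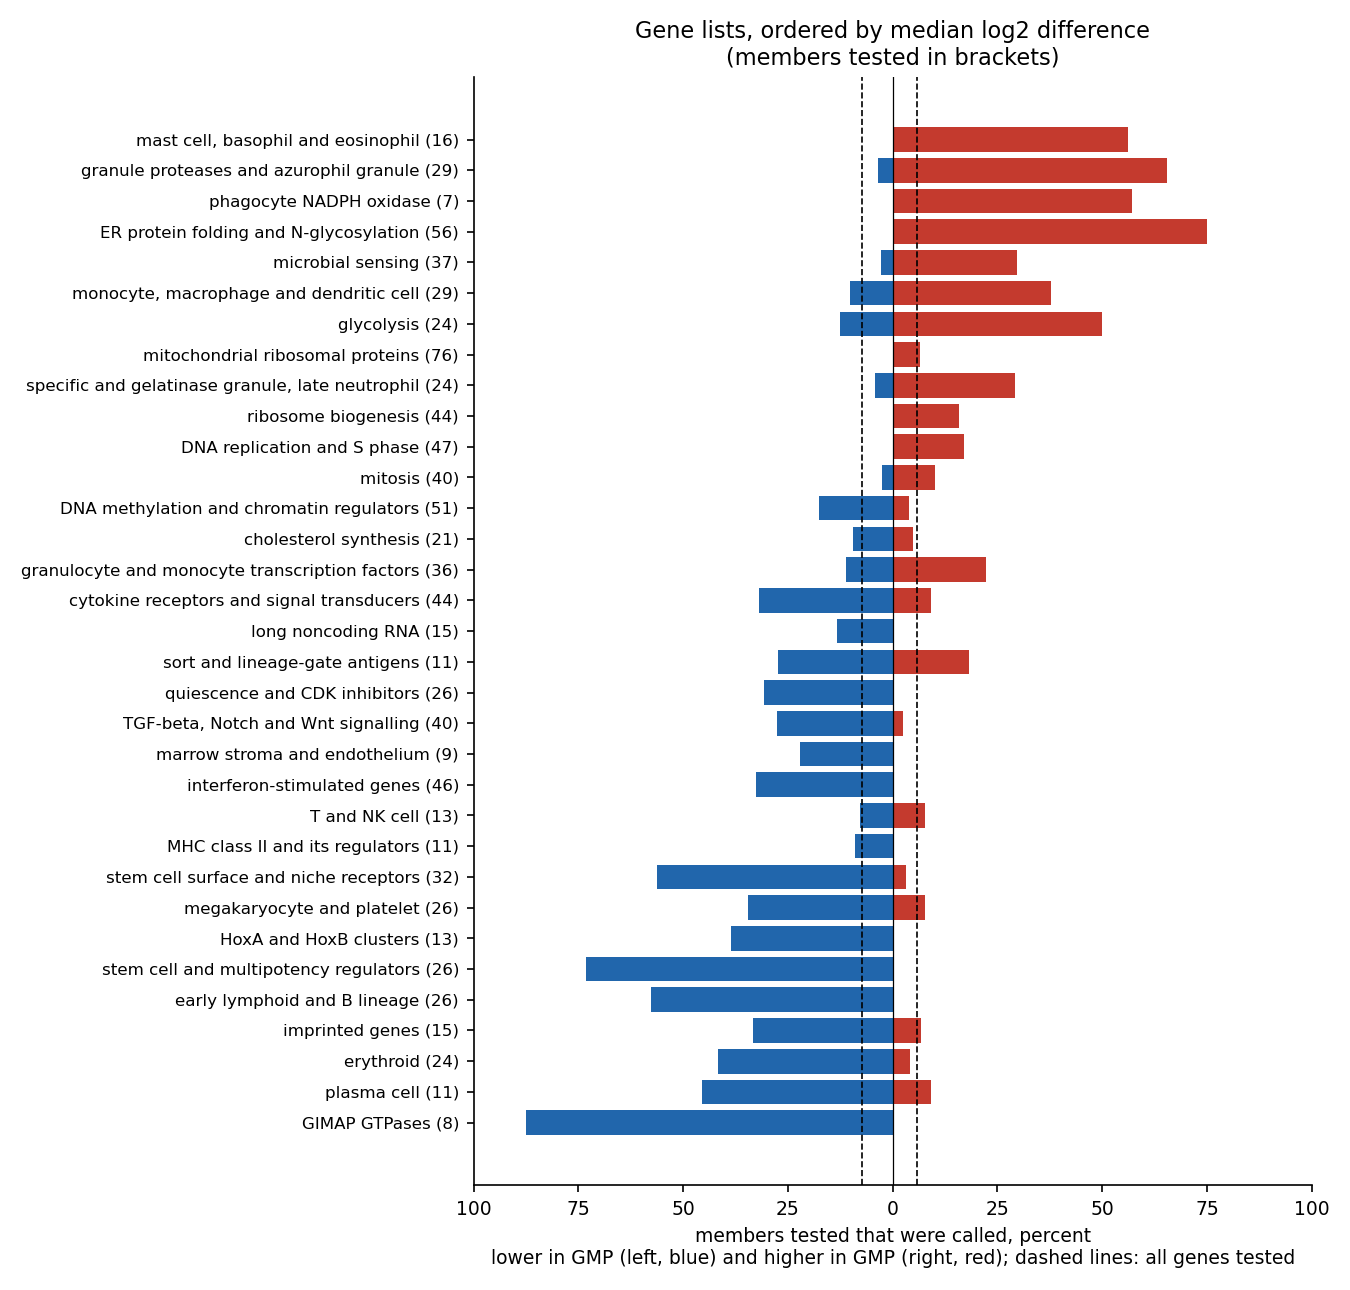
Percent of tested members called lower (blue, to the left) and higher (red, to the right) in WT GMP for the 33 gene lists, ordered by median log2 difference, with the number tested in brackets and dashed lines at 7.37% and 5.72%, the shares over all genes. GIMAP, stem cell and lymphoid lists extend to the left, and the ER, azurophil granule and mast cell, basophil and eosinophil lists to the right.

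Whether the step from LSK to GMP differed in T2F3 animals was tested as the difference between the genotypes' GMP minus LSK differences. It passed in 4 genes (0.0249%), and 1519 had an unadjusted p under 0.05. In all 4 the gene was higher in WT GMP than in WT LSK and the difference was smaller in T2F3. Mcpt8 was at 23.8, 15.3 and 32 CPM in T2F3 LSK and 21.2, 24.2 and 28.9 CPM in T2F3 GMP, against 1.45, 4.09 and 7.39 CPM in WT LSK and 102, 119 and 111 CPM in WT GMP, a difference of differences of -4.63 ± 0.62, adjusted p = 0.0389. Sema4a, a semaphorin of immune cells, was at 52.8, 77.9 and 49.3 CPM in T2F3 LSK and 57, 76.3 and 91.6 CPM in T2F3 GMP, against 2.97, 4.2 and 6.28 and 62.2, 44.5 and 35.7 CPM in WT (-3.09 ± 0.45, adjusted p = 0.047). For Mcpt8 the T2F3 libraries of both populations lay between those of WT, and for Sema4a they overlapped or exceeded WT GMP. Cers6, a ceramide synthase, was at 182, 228 and 256 CPM in T2F3 LSK and 258, 230.4 and 311 CPM in T2F3 GMP, against 49.2, 53.5 and 48.4 and 212, 239 and 209 CPM in WT (-1.86 ± 0.26, adjusted p = 0.047). Enah, an actin regulator, was at 38.2, 45.6 and 73.9 CPM in T2F3 LSK and 17.3, 23.5 and 24.9 CPM in T2F3 GMP, against 0.264, 0.336 and 0.148 and 1.73, 2.56 and 1.51 CPM in WT (-4.16 ± 0.55, adjusted p = 0.0389). WT LSK was the lowest of the 4 groups for each gene. With the replicate block edgeR called 0 genes (1858 at an unadjusted p under 0.05), while DESeq2 and limma-voom without the block called 190 and 23. EdgeR also called 0 when LSK replicate 2, GMP replicate 1 or GMP replicate 2 was left out, where 1527, 1238 and 1398 genes had an unadjusted p under 0.05. Without LSK replicate 1 or 3 it called 1, and without GMP replicate 3 it called 10.

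**Figure D5:**
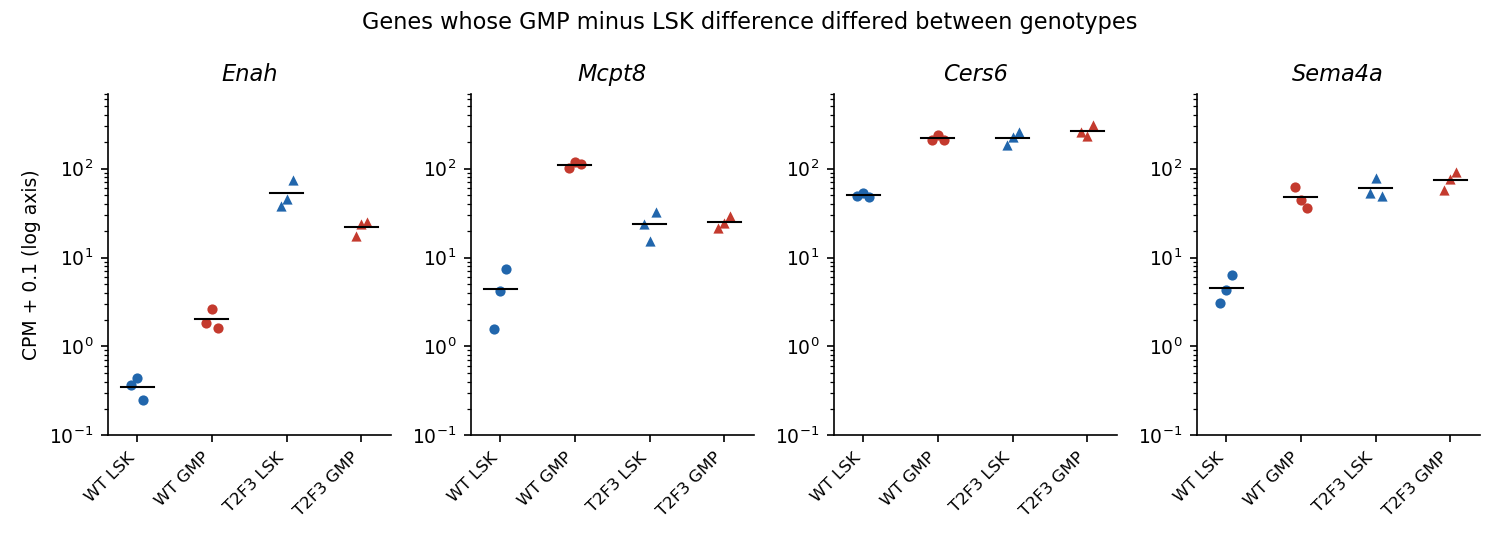
CPM (after adding 0.1, log axis) of Enah, Mcpt8, Cers6 and Sema4a in each of 3 libraries of WT LSK, WT GMP, T2F3 LSK and T2F3 GMP, LSK in blue, GMP in red, WT as circles, T2F3 as triangles and the group mean as a line. The WT LSK points are the lowest in each panel, and T2F3 LSK and T2F3 GMP lie near each other for Mcpt8, Cers6 and Sema4a.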

How the data were processed

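RNA of 12 libraries, 3 each of LSK and GMP from WT and T2F3 marrow, was sequenced on the Ion Torrent platform. Per the labels' protocols, cells were lysed in Trizol and 100 ng of RNA was depleted of ribosomal RNA with RiboMinus before library preparation with the Ion Total RNA-seq kit. The authors deposited 1 table of whole-number read counts per gene, not normalized. The submitters' processing notes list cutadapt 1.2rc2, TopHat2 2, BWA 0.5.9, TopHat, Picard and HTSeq and the build mm9, with no role or order. Whether counting used strand is not given in the sources, so a gene and an antisense partner cannot be told apart, and members of near-identical families (Ly6, Gbp, Gimap, Ear, H2, immunoglobulin) are uncertain.

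Of 21497 entries 19939 were matched to GENCODE vM21 names by identifier, 1558 kept the deposited name and 366 were at 0 everywhere. Entries that share a symbol with another numbered 204. Counts were tested with edgeR 4.0.16 (R 4.3.3): TMM scaling, filterByExpr with a minimum count of 10 (16042 genes), and a quasi-likelihood fit of 4 group means over the 12 libraries (8 residual degrees of freedom), with Benjamini-Hochberg adjustment over all genes and a threshold of 0.05. CPM are counts over the scaled library size. A 0 allows up to 3 counts, and intervals are at 95%. The test was checked on simulated data with 100 genes changed 2-fold and 100 changed 4-fold between WT GMP and WT LSK. It called 4 and 46 of them, all in the right direction, and 3 of all 53 calls were of unchanged genes. A gene that did not pass can therefore still differ.

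Genes were named by rule: sort genes, the 15 largest differences in each direction among genes called with at least 5 CPM and no overlap, the 10 most abundant genes of each population, in each list the members with the smallest p (at most 4), and the called microRNA and genotype differences. Unnamed gene models, small noncoding RNA and antigen receptor segments were left out of the ranked part, and a few genes that the rule names are not reported here. The comparison, its members and the gene lists were chosen with earlier results of these data known.

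Alternatives were RLE scaling, library sizes without small noncoding, ribosomal protein, histone and mitochondrial genes, no filter, a minimum of 5 CPM in 3 libraries, the replicate number or the library code of the labels as a block, the 6 WT libraries alone, limma-voom (limma 3.58.1), DESeq2 1.42.0, the small noncoding share as a covariate, and leaving out each WT library or both replicate 1 libraries. Pairing comes from the numbers in the sample titles. Deviations of same-numbered LSK and GMP libraries from their group means correlated at 0.111, 0.112 and 0.161 in WT and at 0.337 to 0.480 in T2F3, above 0.1 in every pair. The numbers were therefore used as a pairing term in the replicate block. The main fit, from which the p-values above come unless a setting is named, was not paired. Whether same-numbered libraries share an animal or a processing step was not tested.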

Additional observations from a re-analysis of the deposited data

Results flagged for a closer look

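In 4 genes the GMP minus LSK difference itself differed between the genotypes by edgeR's test of the interaction. The T2F3 difference minus the WT difference on the log2 scale was -4.16 ± 0.55 (SE, adjusted p = 0.0389) for Enah, -4.63 ± 0.62 (SE, adjusted p = 0.0389) for Mcpt8, -1.86 ± 0.26 (SE, adjusted p = 0.047) for Cers6 and -3.09 ± 0.45 (SE, adjusted p = 0.047) for Sema4a. GMP exceeded LSK in 3 of 3 WT libraries for each of the 4 genes. In T2F3 the libraries of the 2 populations overlapped for Mcpt8, Cers6 and Sema4a, and every GMP library of Enah was below every LSK library. Of 16 alternative settings, the call was not made in 9 for Enah, 5 for Mcpt8, 8 for Cers6 and 8 for Sema4a, with adjusted p up to 0.777, 0.392, 0.777 and 0.247.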

How the results depend on the processing

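Counts of genes depended on the fit. The higher and lower counts of 918 and 1182 became 432 and 542 when the library code was a block, 480 and 708 with the 6 WT libraries alone, and 502 and 794 without both replicate 1 libraries. Limma-voom gave 1425 higher and DESeq2 1966 lower. Leaving out 1 library gave 538 to 982 higher and 657 to 1108 lower. The replicate block, with the replicate number of the titles as a pairing term, gave 1085 and 1269, and among the named genes it changed 12 calls to not passed and 4 to passed. The genotype difference, 4 genes, became 7 with a minimum of 5 CPM, 0 with the replicate block and 0 with the library code block by edgeR (1858 and 641 genes with an unadjusted p under 0.05), 23 by limma-voom, 190 by DESeq2, 10 with the small noncoding share as a covariate, 1 without both replicate 1 libraries, and 0 to 10 when 1 library was left out. The cause was not tested. Of 195 named genes called, RLE scaling lost 4, no filter 5, the library code 53, limma-voom 11, the covariate 2, single libraries 19 to 41, and no sign reversed under the settings run. The 6 WT libraries alone lost 33 of 190 such calls and gained 4. Among those lost by edgeR were Mcm5 (adjusted p = 0.0636), E2f1 (0.0607), Kif2c (0.0988), Cybb (0.0953) and Cd34 (0.0857). Hoxa5 (0.101), Mir155 (0.157), Ctsc (0.131), Adgre1 (0.0573) and Aldoc (0.0664) were lost as well. RLE scaling made 795 higher and 1300 lower calls. Libraries of 13316474 to 22315312 counts limit genes near the floor of 0.1301 to 0.2216 CPM.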

Other observations

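Genes of cholesterol synthesis were called at shares near those of all genes: of 21 tested members 1 was higher in GMP (4.76%, against 5.72%) and 2, Srebf2 and the enzyme gene Cyp51, were lower (9.52%, against 7.37%). The Cyp51 call was lost without GMP replicate 2 (adjusted p = 0.0586) and without both replicate 1 libraries (0.053). Srebf2, the transcription factor of the pathway, was at 631, 429 and 411 CPM in LSK and 247, 211 and 194 CPM in GMP (log2 difference -1.17 ± 0.21, adjusted p = 0.00378 by edgeR), with every GMP library below every LSK library. Fdps, the farnesyl diphosphate synthase, was at 48.8, 26.8 and 41.8 CPM in LSK and 109.7, 71.9 and 87.9 CPM in GMP (2.3-fold higher, adjusted p = 0.0184), also without overlap but in the other direction, and lost its call without LSK replicate 2 (adjusted p = 0.0698) or GMP replicate 1 (0.0672). Among 15 long noncoding RNAs tested, 2 were lower, Meg3 and Lncpint (13.3%, against 7.37% of all genes). By edgeR the count was 0 without LSK replicate 1 or 2 or GMP replicate 2 or 3, where 4, 3, 3 and 7 had an unadjusted p under 0.05, and 1 without LSK replicate 3 or GMP replicate 1, while DESeq2 called 3 on all libraries. Lncpint was at 13.8, 10.6 and 5.84 CPM in LSK and 0, 1.56 and 0.988 CPM in GMP (adjusted p = 0.0336), and the call was lost with the replicate block (adjusted p = 0.0636) and without LSK replicate 1 (0.0693), LSK replicate 2 (0.0696), GMP replicate 2 (0.0512) or GMP replicate 3 (0.0714).

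Among the most abundant genes, the libraries of 1 population could be spread widely. Lars2, the mitochondrial leucyl-tRNA synthetase, was at 1608, 1366 and 574 CPM in LSK and 9039, 5376 and 473 CPM in GMP (adjusted p = 0.392), so that its share of counts went from 0.117% in LSK to 0.435% in GMP without a call. Snhg1, a snoRNA host gene, was at 8279, 5258 and 6325 CPM in LSK and 10643, 548 and 5593 CPM in GMP (adjusted p = 0.914), and its lowest library was GMP replicate 2, which also had the lowest small noncoding RNA share, 8.95%. The part of that share in the Snhg1 values was not tested.

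Other promoter letters searched on both strands of the 250-base windows were TTGCNNAA for C/EBP factors and TGTGGT for RUNX factors. The C/EBP letters were in 7.46% of 10287 promoters and in 3 of 22 of the azurophil granule list (13.6%). Among its 16 promoters of genes called higher, 1 held them (6.25%). Other lists had 21.4% (mast cell, basophil and eosinophil), 14.3% (stem cell regulators), 11.8% (erythroid) and 6.82% (ER). The RUNX letters were in 11.1% of all promoters and in 7 of 22 of the granule list (31.8%). The same other lists had 35.7%, 4.76%, 17.6% and 4.55%. In the 868 promoters of genes called lower the RUNX letters were in 10.1%, and in the 696 of genes called higher in 12.5%.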
